A study of Mus musculus with 5 samples.

Results

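The let-7 and miR-98 guide strands are the 5p arms of the let-7 hairpins and of the miR-98 hairpin. They were taken from the arrays by name, and the 9 found were mmu-let-7a-5p, mmu-let-7b-5p, mmu-let-7c-5p, mmu-let-7d-5p, mmu-let-7e-5p, mmu-let-7f-5p, mmu-let-7g-5p, mmu-let-7i-5p and mmu-miR-98-5p (written below without the species prefix), out of 1122 mouse miRNAs on the array. The cells were BMDCs, dendritic cells grown from C3H/HeJ mouse bone marrow with rmGM-CSF and rmIL-4 and purified with magnetic beads against CD11c. They were kept for 24 h either with 100 ng/mL flagellin (3 arrays) or in medium alone (2 arrays), and total RNA from each sample was hybridized to a 1-colour Agilent array. Flagellin is the bacterial protein recognized by TLR5, and the C3H/HeJ strain carries a Tlr4 mutation that makes its cells respond poorly to lipopolysaccharide. The question was whether flagellin changes miRNA levels in these cells. The 5 arrays shared 1 slide. Its column 2 held flagellin replicates 1 and 2, column 3 held flagellin replicate 3 and column 4 held the medium replicates, and effects of treatment and of position on the slide therefore cannot be told apart. Nothing in the labels says that the replicates came from separate cultures or animals, so the p-values measure the spread between these samples, which may be technical.

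let-7 was among the earliest miRNAs found, as a switch of developmental timing in worms. Its guide strands are loaded into Argonaute proteins and repress mRNAs that pair with the seed, a short stretch near the 5′ end, and known targets include Hmga2, Lin28 and Il6. The RNA-binding protein LIN28 in turn blocks the maturation of let-7 precursors, and mature let-7 is therefore known as a mark of differentiated cells, in which several members are made side by side from separate hairpins.

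All 9 members matched a mature sequence in RefSeq (build GRCm38.p6). The sequences are shown because the members share their seed and are told apart by few bases outside it. Each is written 5′ to 3′, with the seed, bases 2 to 8, in capitals.
let-7a-5p: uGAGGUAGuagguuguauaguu
let-7b-5p: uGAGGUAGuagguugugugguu
let-7c-5p: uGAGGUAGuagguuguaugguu
let-7d-5p: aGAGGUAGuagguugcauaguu
let-7e-5p: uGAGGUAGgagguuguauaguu
let-7f-5p: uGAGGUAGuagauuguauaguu
let-7g-5p: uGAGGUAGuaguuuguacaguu
let-7i-5p: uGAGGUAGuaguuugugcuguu
miR-98-5p: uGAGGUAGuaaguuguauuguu

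Every member was 22 nt long, and the seed was identical in 9 of 9. Among the 881 array miRNAs with a RefSeq mature sequence, 10 held this seed, and the single non-member was miR-1961. With positions counted from 1 at the 5′ end and the base of let-7a-5p written first, let-7c-5p differed from let-7a-5p by A19G, let-7e-5p by U9G and let-7f-5p by G12A. let-7b-5p carried A17G and A19G, let-7d-5p carried U1A and U16C, let-7g-5p carried G12U and U18C, and miR-98-5p carried G11A and A19U. let-7i-5p was the farthest from let-7a-5p, with G12U, A17G, U18C and A19U. Over the 36 pairs of members, 4 pairs differed at 1 base and 10 at 2 bases. The widest pair, let-7d-5p and let-7i-5p, differed at 6 bases.

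**Figure D1:**
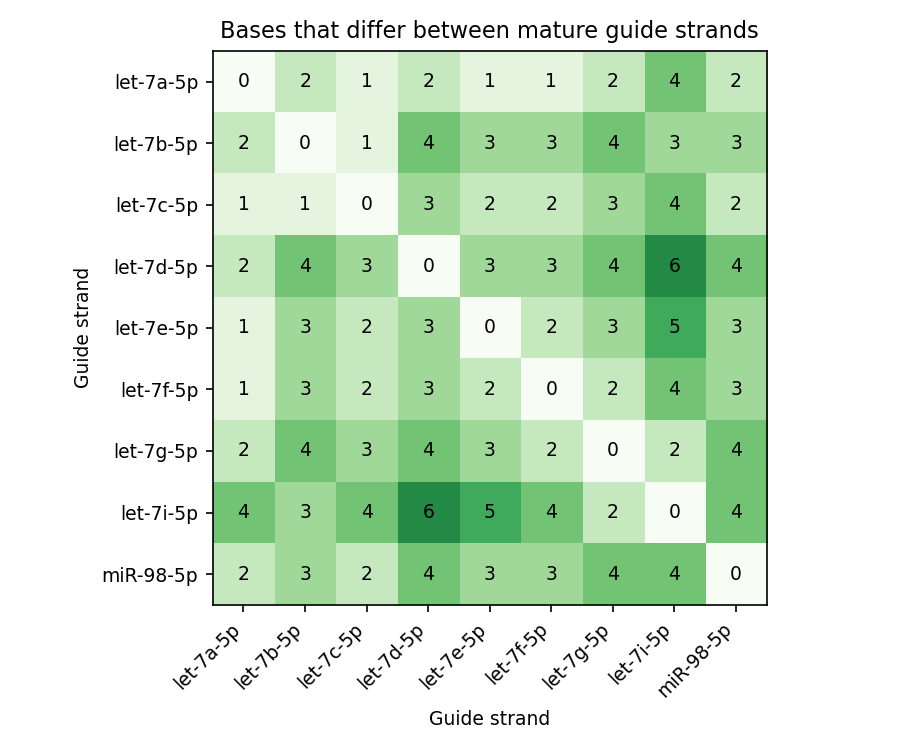
Number of bases that differ between the mature sequences of each pair of the 9 guide strands, aligned without gaps over 22 nt, with darker green for more differences. let-7a-5p differs at 1 base from let-7c-5p, let-7e-5p and let-7f-5p, and the largest number is 6, between let-7d-5p and let-7i-5p.

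The members lie on several chromosomes and partly in clusters. let-7d-5p (chr13:48536078-48536099), let-7f-5p (chr13:48537889-48537910) and let-7a-5p (chr13:48538239-48538260) are encoded on the minus strand, with 1714 bases between the let-7d and let-7f-1 hairpins and 261 between the let-7f-1 and let-7a-1 hairpins. let-7c-5p (chr15:85706616-85706637) and let-7b-5p (chr15:85707325-85707346) lie on the plus strand with 621 bases between their hairpins. miR-98-5p (chrX:151913229-151913250) and another copy of let-7f-5p (chrX:151912353-151912374), both on the plus strand, have hairpins 785 bases apart. Another copy of let-7c-5p (chr16:77599672-77599693, plus strand) follows the miR-99a hairpin after 656 bases, and let-7e-5p (chr17:17830366-17830387, plus strand) precedes the miR-125a hairpin by 367 bases. The let-7a-2 hairpin (chr9:41536716-41536811, plus strand), which holds the whole let-7a-5p sequence but has no mature entry for it in the file, lies 5211 bases after the miR-100 hairpin and 45114 bases before the miR-125b-1 hairpin. let-7g-5p (chr9:106178846-106178867, plus strand) and let-7i-5p (chr10:122985698-122985719, minus strand) had no other listed hairpin close by. A mature sequence encoded at more than 1 locus gives 1 value on the array, so the copies of let-7a-5p, of let-7c-5p and of let-7f-5p could not be measured apart.

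All 9 members were detected on all 5 arrays, and their signals kept 1 order on every array, from let-7f-5p down to miR-98-5p. The value given is the total gene signal, the background-subtracted intensity summed over the probes of a miRNA that exceed 3 times their error. It orders the array signals and not amounts of RNA, because probes of different length and base composition bind with different strength. The mean signal over the 5 arrays ranged from 178 for miR-98-5p to 4550.0 for let-7f-5p, and the scaled level of let-7f-5p was 25.7 times that of miR-98-5p.

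let-7f-5p, known to promote the sprouting of blood vessels, had total gene signals of 5063, 4859 and 3547 after flagellin (replicates 1, 2 and 3) and of 4808 and 4473 in medium (replicates 1 and 2). let-7a-5p, known to target Il6, had 3906, 3743 and 3028 after flagellin and 3859.6 and 3477 in medium. For both, flagellin replicate 3 was lowest and flagellin replicate 1 highest, and the medium values lay between them. That array was dimmer as a whole, with a summed signal of mouse miRNAs of 181794 against 204753 to 234462 on the other arrays. Levels were therefore compared after dividing each signal by its array's 75th percentile, taken over the 277 mouse miRNAs that all 5 arrays detected. On that scale, in log2 units, let-7f-5p was 4.10 ± 0.063 after flagellin (SD, n = 3) and 4.14 ± 0.066 in medium (SD, n = 2). let-7a-5p was 3.77 ± 0.088 after flagellin (SD, n = 3) and 3.80 ± 0.033 in medium (SD, n = 2).

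The next 3 members formed a middle tier. let-7d-5p, the member with a different first base, had total gene signals of 2696, 2489 and 1985 after flagellin and 2498 and 2308 in medium. let-7g-5p, which has no other listed hairpin close by, had 2237, 2055 and 1449 after flagellin and 1922 and 1795 in medium. let-7i-5p, known to target Tlr4, had 2114, 1957 and 1355 after flagellin and 1913 and 1725 in medium. Flagellin replicate 3 was again the lowest array for each, and the medium values lay within the range of the flagellin values. In scaled log2 units, let-7d-5p was 3.19 ± 0.095 after flagellin (SD, n = 3) and 3.19 ± 0.059 in medium (SD, n = 2). let-7g-5p was 2.86 ± 0.11 after flagellin (SD, n = 3) and 2.82 ± 0.070 in medium (SD, n = 2), and let-7i-5p was 2.78 ± 0.12 and 2.79 ± 0.034.

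Below them came 3 members with smaller signals. let-7c-5p, which shares its chromosome 16 locus with miR-99a, had total gene signals of 827, 830.0 and 686 after flagellin and 820.0 and 735 in medium. let-7b-5p, which differs from let-7c-5p at 1 base, had 727, 709 and 623 after flagellin and 728 and 638 in medium. let-7e-5p, known to target Tlr4 in macrophages, had 403, 381 and 343 after flagellin and 399.7 and 370.3 in medium. Flagellin replicate 3 was lowest in signal for all 3, but after scaling it was their highest array. let-7c-5p was 1.59 ± 0.10 in scaled log2 units after flagellin (SD, n = 3) and 1.56 ± 0.028 in medium (SD, n = 2). let-7b-5p was 1.40 ± 0.15 and 1.37 ± 0.0046 in the same groups, and let-7e-5p was 0.53 ± 0.16 and 0.55 ± 0.061. On this scale the flagellin values enclosed both medium values for let-7b-5p, let-7c-5p and let-7e-5p alike.

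miR-98-5p, the member that is not named let-7 although it carries the same seed, was the dimmest. It had total gene signals of 206, 189 and 131 after flagellin and 193 and 170.5 in medium. Flagellin replicate 3 was lowest, and the groups overlapped. In scaled log2 units it was -0.59 ± 0.12 after flagellin (SD, n = 3) and -0.54 ± 0.012 in medium (SD, n = 2).

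**Figure D2:**
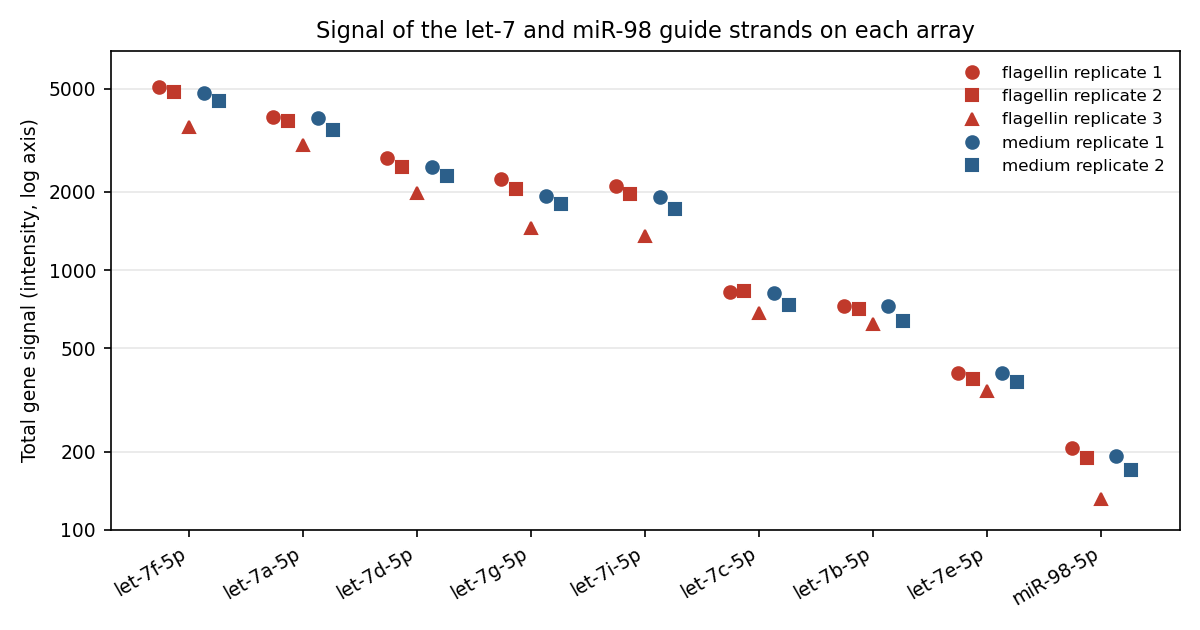
Total gene signal (intensity, log axis) of the 9 guide strands on each array, flagellin in red, medium in blue, 1 marker shape per replicate number. The order from let-7f-5p to miR-98-5p is the same on all 5 arrays, and flagellin replicate 3 is the lowest array for every member before scaling.

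Some neighbours in this order lay close. let-7g-5p exceeded let-7i-5p by a ratio of 1.04 (range 1.005 to 1.07 over 5 arrays), and their scaled values overlapped between arrays. let-7c-5p exceeded let-7b-5p by 1.14 (1.10 to 1.17), again with overlapping ranges. The scaled ranges of the other neighbours were apart. let-7f-5p stood above let-7a-5p by 1.26 (1.17 to 1.30), let-7a-5p above let-7d-5p by 1.51 (1.45 to 1.55), and let-7d-5p above let-7g-5p by 1.27 (1.21 to 1.37). Wider steps followed, with a ratio of 2.31 (1.98 to 2.56) between let-7i-5p and let-7c-5p, 1.80 (1.72 to 1.86) between let-7b-5p and let-7e-5p, and 2.16 (1.96 to 2.61) between let-7e-5p and miR-98-5p. The ratio of let-7i-5p to let-7c-5p was lowest on flagellin replicate 3, at 1.98 against 2.33 to 2.56 on the other arrays, and the ratio of let-7e-5p to miR-98-5p was highest there, at 2.61 against 1.96 to 2.17.

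The order rests on sums over probes of different length, and it turned for some neighbours when single probes of equal length were compared, a check made after the values had been seen. On all 5 arrays let-7a-5p exceeded let-7f-5p at 20 nt (let-7f-5p over let-7a-5p 0.522), let-7d-5p exceeded let-7a-5p at 19 nt (let-7a-5p over let-7d-5p 0.838), let-7i-5p exceeded let-7g-5p at 20 nt (let-7g-5p over let-7i-5p 0.939) and let-7b-5p exceeded let-7c-5p at 18 nt (let-7c-5p over let-7b-5p 0.779). The other 24 of 28 comparisons at a shared length kept the order on all arrays, among them let-7g-5p over let-7i-5p at 21 nt and let-7c-5p over let-7b-5p at 19 nt. The order of these 4 pairs of neighbours is therefore not settled by the signals. Some neighbours share no probe length, and their order could not be checked in this way. They are let-7d-5p and let-7g-5p, let-7i-5p and let-7c-5p, and let-7e-5p and miR-98-5p.

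Together the 9 members carried 7.501% ± 0.25 (SD, n = 5) of the summed signal of detected mouse miRNAs. The share was 7.85%, 7.34% and 7.23% after flagellin and 7.42% and 7.66% in medium. Both medium shares lay inside the range of the flagellin shares. The share depends on a few very bright miRNAs, and it was 17.3% when the 10 brightest non-members were left out of the sum. Within the family, let-7f-5p made up 27.9% ± 0.58 (SD, n = 5) of the members' signal and let-7a-5p 22.2% ± 0.62, so that these 2 held between 49.3% and 50.7% on every array. The 3 dimmest, let-7b-5p, let-7e-5p and miR-98-5p, held between 7.35% and 8.34%. By rank of signal among mouse miRNAs, let-7f-5p was 10th on each array, let-7a-5p was between 12th and 15th, and miR-98-5p was between 83rd and 93rd.

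No difference between flagellin and medium was detected for any member. Fold changes on the log2 scale, flagellin minus medium, ran from -0.051 for miR-98-5p to 0.044 for let-7g-5p, with standard errors of 0.081 to 0.12. In limma's test across the 307 mouse miRNAs detected on at least 2 arrays, 0 of the 9 members had an adjusted p under 0.05, against a background of 0.651% (2 of 307, namely miR-5112 and miR-466i-3p, which all 3 flagellin arrays failed to detect). At an unadjusted p under 0.05 the count was also 0 of 9, against 5.86% of all tested, and the methods' t-test likewise gave 0 members. No member had all its flagellin values above both medium values, a pattern seen in 11.4% of the tested miRNAs, and none had them all below, seen in 8.79%.

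The 2 brightest members had log2 fold changes of -0.038 (let-7f-5p, 95% confidence interval -0.25 to 0.17, adjusted p = 0.928) and -0.025 (let-7a-5p, -0.25 to 0.20, adjusted p = 0.953). In the middle tier they were 0.0070 for let-7d-5p (-0.23 to 0.25), 0.044 for let-7g-5p (-0.22 to 0.31) and -0.0064 for let-7i-5p (-0.26 to 0.25). let-7c-5p had 0.028 (-0.21 to 0.27), let-7b-5p 0.032 (-0.26 to 0.32) and let-7e-5p -0.012 (-0.33 to 0.31). The interval of each of these members included 0. miR-98-5p had -0.051 (-0.31 to 0.21). Adjusted p-values over the 9 members ran from 0.915 to 0.990. Taken over all members, the intervals reached from -0.33 (let-7e-5p) to 0.32 (let-7b-5p), which is a fold of 0.796 to 1.25. For each member, changes within its own interval could not be told from the spread between arrays. The span over all members depends on the scaling: it was -0.34 to 0.71 with the 75th percentile taken over all mouse miRNAs and -0.68 to 0.60 without scaling.

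By direction, 5 members were lower and 4 higher, with each fold change smaller than its standard error, so these directions carry no weight. With the 75th percentile taken over all mouse miRNAs, 9 of 9 were higher, with a median of 0.17, but that scaling shifts the members by 1 common amount and moved the median of all 307 miRNAs from 0.0095 to 0.19. The median log2 fold change of the members was -0.0064. The median size of the fold change, whatever its sign, was 0.028 for the members and 0.10 over all 307 miRNAs.

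**Figure D3:**
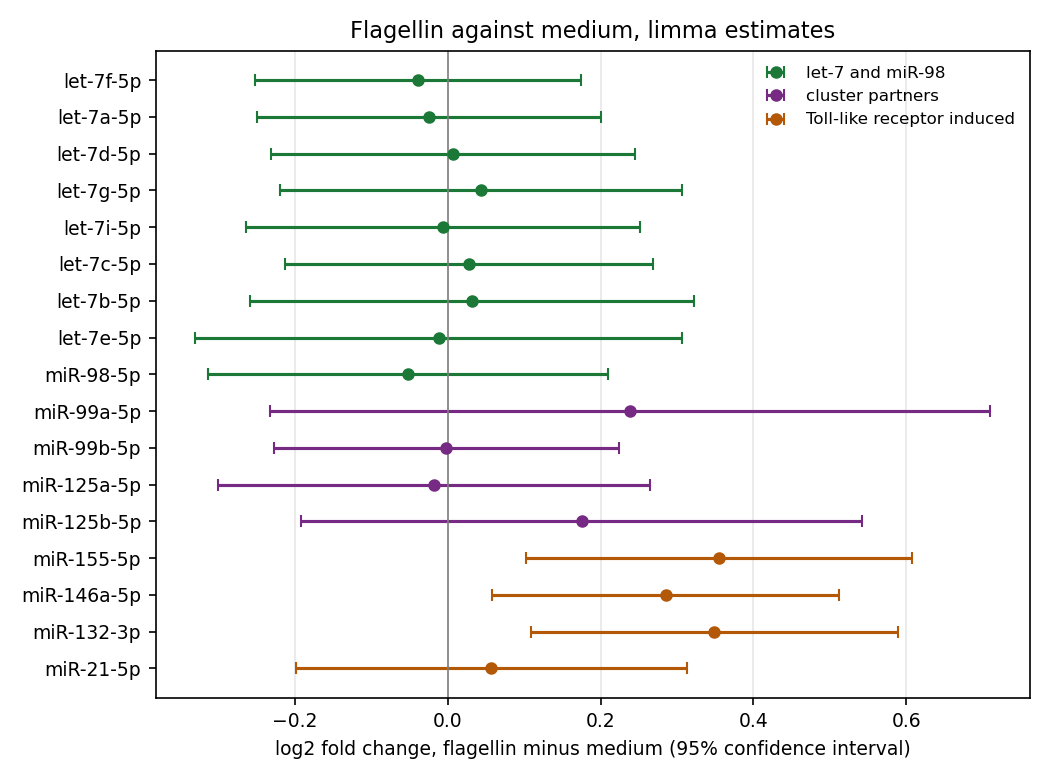
log2 fold change (flagellin minus medium) from limma with 95% confidence intervals, not adjusted for the number of miRNAs, for the 9 guide strands (green), 4 detected cluster partners (purple) and 4 detected miRNAs induced by Toll-like receptors (orange). The guide strands lie between -0.051 and 0.044 with intervals that include 0, under a scaling on which miR-155-5p stands at 0.35; with the percentile over all mouse miRNAs, which shifts them by 1 common amount, 9 of 9 guide strands stand above 0.

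The opposite arms of the same hairpins were nearly without signal. Of 11 let-7 and miR-98 3p strands on the array, 8 were undetected on all 5 arrays. The others, let-7b-3p, let-7d-3p and let-7f-1-3p, were each detected on 1 array, with total gene signals of 7.85 on flagellin replicate 3, 2.76 on medium replicate 2 and 2.53 on medium replicate 2. No 3p strand met the filter for testing. Their highest probe signal was 2.84, and the lowest signal of any guide strand probe was 57.8.

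Of the 5 miRNAs made from let-7 host clusters, 4 were detected on all arrays and miR-100-5p on none. miR-125a-5p, the neighbour of let-7e, had total gene signals of 205, 189 and 165 after flagellin and 203 and 179.5 in medium, and the groups overlapped. miR-99a-5p, the neighbour of let-7c-1, had signals of 11.04, 15.3 and 7.70 after flagellin and 9.998 and 8.89 in medium. After scaling, all 3 flagellin values of miR-99a-5p lay above both medium values, and the highest was flagellin replicate 2. 0 of the 4 had an adjusted p under 0.05 and 2 (miR-99a-5p and miR-125b-5p) were higher without overlap, against 0.651% and 11.4% of the 307. Their log2 fold changes were 0.24 (miR-99a-5p) and 0.18 (miR-125b-5p), with an adjusted p of 0.859 for each. Without flagellin replicate 2 they were 0.083 and 0.058. They also moved with the scaling, to 0.42 and 0.36 with the percentile over all mouse miRNAs. With normexp and quantile normalization they were 0.056 and 0.069. In the main setting, miR-99b-5p and miR-125a-5p had -0.0015 and -0.018. The list's median was 0.087, against 0.0095 for all 307.

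miRNAs known to be induced by Toll-like receptor signals were read in the same fit. miR-155-5p had total gene signals of 835, 788 and 621 after flagellin and 597 and 584 in medium. The scaled log2 values were 1.57, 1.43 and 1.56 after flagellin and 1.08 and 1.25 in medium, so all flagellin values lay above both medium values. Its log2 fold change was 0.35 (95% confidence interval 0.10 to 0.61, adjusted p = 0.650). The total gene signals of miR-146a-5p and miR-132-3p overlapped between the groups. On flagellin replicate 3 they were 89.99 and 28.0, below the 99.6 and 31.5 of medium replicate 1. After scaling, miR-146a-5p and miR-132-3p were also higher without overlap, at 0.28 and 0.35, each with an adjusted p of 0.650, and miR-21-5p overlapped at 0.057. These sizes depend on the scaling: when all mouse miRNAs entered the percentile, the values of miR-155-5p, miR-146a-5p and miR-132-3p were 0.54, 0.47 and 0.53, and with normexp and quantile normalization 0.27, 0.18 and 0.16. miR-147-3p was undetected on all 5 arrays. Thus 0 of the 4 detected passed the adjusted threshold, against 0.651% of all 307, and 3 of 4 were higher without overlap after scaling, against 11.4%. The median was 0.32, against 0.0095. In limma's test, 3 of 4 had an unadjusted p under 0.05, against 5.86% of the 307. Whether these miRNAs differ from the let-7 members in their change was not tested.

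Because the members differ by few bases, their probes were set against the mature sequences. Each guide strand was read by 2 probes, 18 in all, each printed in 20 spots, and no probe sequence was shared by members. The probes were complementary to the miRNA from base 22 back to a base between 1 and 5, with lengths of 18 to 22 nt. In 9 of 9 pairs the longer probe was the shorter one with 1 base added at its 3′ end, as in the pair for let-7f-5p and the pair for let-7e-5p, written 5′ to 3′ with the added base in capitals.
let-7f-5p, 20 nt: aactatacaatctactacct
let-7f-5p, 21 nt: aactatacaatctactacctC
let-7e-5p, 18 nt: aactatacaacctcctac
let-7e-5p, 19 nt: aactatacaacctcctacC

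Counted without gaps over the bases each probe covers, 12 of the 18 probes had another member at 1 mismatch, and the other 6, those for let-7g-5p, let-7i-5p and miR-98-5p, had their nearest member at 2. Among the 144 pairs of a probe and another member, 20 had 1 mismatch, 48 had 2 and the largest number was 5. With the probe's own miRNA written first, the let-7f-5p probes met let-7a-5p with A12G alone, the let-7e-5p probes met it with G9U, and the let-7c-5p probes met it with G19A and let-7b-5p with A17G. The let-7d-5p probes met let-7a-5p with C16U alone, since base 1, where these 2 also differ, lay outside the probes of both. The longest run of matched bases among these pairs was 16, between the 20-nt probe for let-7a-5p and let-7c-5p.

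How much of a member's signal came from its relatives was not measured directly, but the dimmest readings set bounds. The 18-nt probe for let-7e-5p, 1 mismatch from the brighter let-7a-5p, read between 142 and 168 over the 5 arrays, so binding of let-7a-5p to it gave no more than that. The 21-nt probe for miR-98-5p, 2 mismatches from let-7a-5p, read between 57.8 and 92.8. Each bound is the probe's whole reading, so how much of it came from let-7a-5p is not known for these dim members. For the brighter members the same bound is larger. The 20-nt probe for let-7f-5p, 1 mismatch from let-7a-5p, read between 956 and 1318, and the 19-nt probe for let-7a-5p between 1112 and 1420, so each of these 2 probes may hold signal from the other member up to that reading.

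Probes made for other miRNAs gave a further reading of the same kind, looked up after the values had been seen. Of 1261 probes of at least 17 nt for non-members, 5 lay within 2 mismatches of a guide strand, and 2 of these, both for miR-3962, within 1. miR-3962 is shown with the base that sets it apart from let-7g-5p in capitals, which in let-7g-5p numbering is G20U.
miR-3962: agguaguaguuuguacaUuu

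The 20-nt probe for miR-3962 (chr1:194822035-194822054, GRCm38.p6, plus strand) read 0.38, 0.021 and -0.26 after flagellin and 1.01 and 0.28 in medium. On the same arrays the 20-nt probe for let-7g-5p read 855, 771 and 554 after flagellin and 734 and 699.9 in medium. The miR-3962 probe stayed below 3 times its error on all 5 arrays, so let-7g-5p gave it no detectable signal across this mismatch near the 3′ end. The 17-nt probe for miR-1961, which holds the let-7 seed and meets let-7g-5p with U14A and U16A, had a highest reading of -0.27, and miR-1961 was undetected on all 5 arrays. The other 2 probes, for miR-3970, met let-7i-5p with A7U and G20U and read at most 1.58, below 3 times their error on all arrays. These readings hold for the mismatches named, and the mismatches between members are other base changes, at other positions except base 16. The probes for miR-1961 and miR-3970 also stop short of base 22, which every member probe covers. None of these probes exceeded 3 times its error on any array, so whether they can bind their own miRNA was not shown.

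No difference was detected probe by probe either, in a test that called no probe of any miRNA. Log2 fold changes of the 18 probes ran from -0.054 to 0.057, with 10 lower and 8 higher. In limma's test over 596 probes, 0 of the 18 had an adjusted p under 0.05, against a background of 0%, and the smallest adjusted p was 0.899. At an unadjusted p under 0.05 there were 0 of 18 and 39 of all 596 (6.54%). No member probe had all flagellin values above both medium values, against 11.9% of all 596, or all below, against 8.56%. The signal of each member probe was at least 9.65 times its error.

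The longer probe was brighter than the shorter in 9 of 9 pairs on all 5 arrays, by a ratio that varied more between members than between arrays, although some members shared a range. let-7f-5p had the largest ratio, with its 21-nt probe over its 20-nt probe at 2.84, 2.82 and 2.71 after flagellin and 2.71 and 2.85 in medium. let-7c-5p followed at 2.35, 2.36 and 2.27 after flagellin and 2.14 and 2.27 in medium. At the other end, miR-98-5p had 1.22, 1.23 and 1.27 after flagellin and 1.24 and 1.25 in medium. The ratios of the extremes did not approach each other on any array. Over the 5 arrays the mean ratio was 2.78 ± 0.071 (SD, n = 5) for let-7f-5p, 2.28 ± 0.086 for let-7c-5p, 1.24 ± 0.022 for let-7b-5p and 1.24 ± 0.019 for miR-98-5p. Thus let-7b-5p and let-7c-5p, which differ at 1 base and had the same 2 probe lengths, differed in this ratio by more than its SD over arrays. The SD of the ratio was between 1.55% of its mean for miR-98-5p and 3.77% for let-7c-5p.

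**Figure D4:**
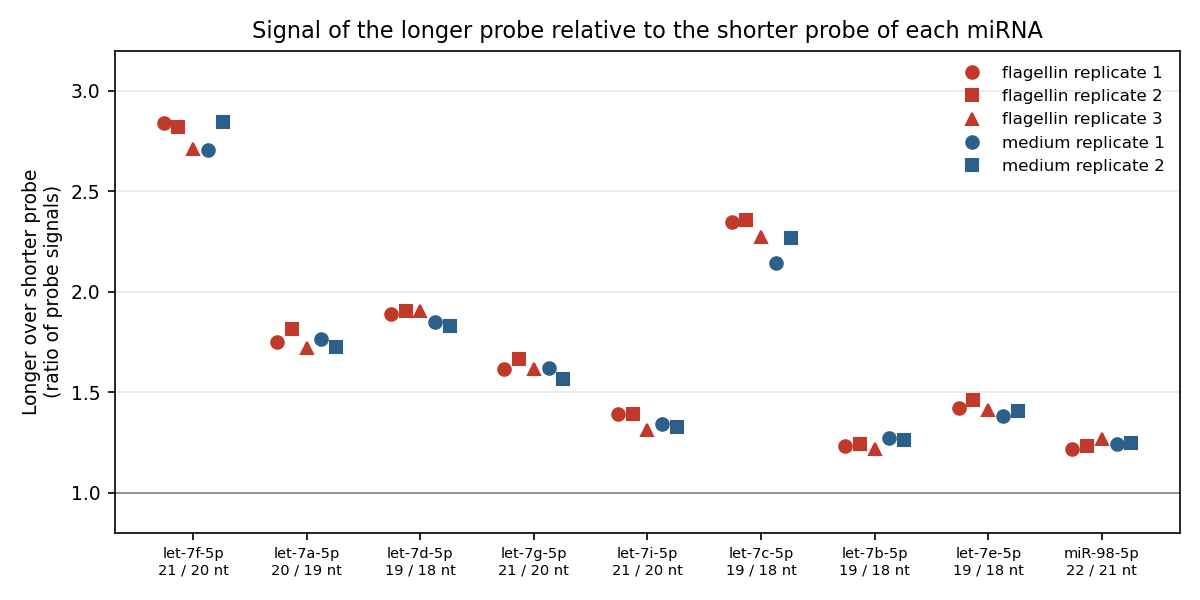
Signal of the longer probe divided by that of the shorter probe of each guide strand on each array, with probe lengths under the names, flagellin in red and medium in blue. The ratios lie above 1 throughout, from 1.22 for miR-98-5p to 2.85 for let-7f-5p, and each member's 5 arrays lie close together.

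Flagellin replicate 3 departed from the other flagellin arrays in a way that followed probe length, a pattern looked for after the values had been seen. Scaled log2 values on that array minus the mean of replicates 1 and 2 were 0.25 for let-7e-5p, 0.24 for let-7b-5p, 0.17 for let-7c-5p, 0.11 for let-7a-5p and 0.062 for let-7d-5p. They were -0.037 for let-7f-5p, -0.12 for let-7g-5p, -0.14 for let-7i-5p and -0.14 for miR-98-5p. The members above 0 were those read by probes of 18 to 20 nt, and the members below 0 those read by probes of 20 to 22 nt. Among member probes of 18 to 19 nt the median departure was 0.21 (9 probes, 0 below 0), and among those of 20 nt or more it was -0.10 (9 probes, 7 below 0).

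The same dependence appeared in probes of other mouse miRNAs above 3 times their error on all arrays. Their median departure was 0.23 for 142 probes of up to 14 nt, 0.075 for 192 of 15 to 17 nt, -0.043 for 112 of 18 to 19 nt and -0.17 for 69 of 20 nt or more. The member probes of 18 to 19 nt thus lay above the median of other probes of that length. With the linear trend on probe length removed within each array, an alternative chosen after seeing the data, 7 members were lower and 2 higher after flagellin and none had an adjusted p under 0.05. The part that probe length or the array's place on the slide plays in the members' spread was not tested.

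**Figure D5:**
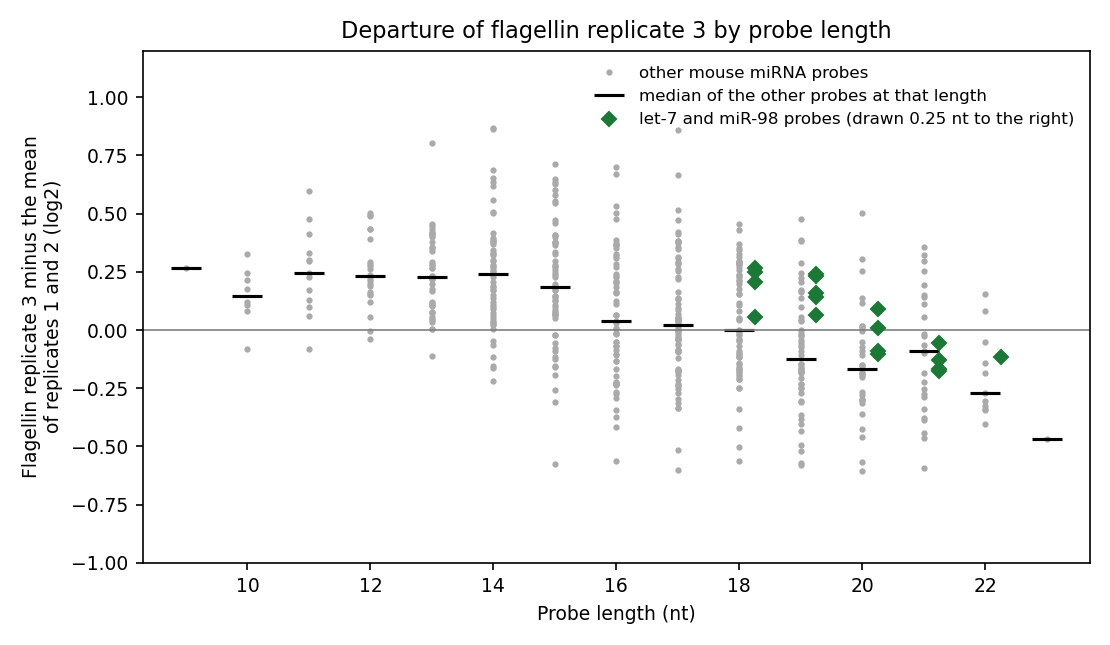
Scaled log2 signal on flagellin replicate 3 minus the mean of flagellin replicates 1 and 2, by probe length in nt, for the 18 guide strand probes (green diamonds) and the probes of other mouse miRNAs (grey points, with black bars for their median at each length). The median of the other probes goes from 0.23 at up to 14 nt to -0.17 at 20 nt or more, and the 9 guide strand probes of 18 to 19 nt lie above 0.

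Markers of cell identity were read beside the members. The 3 myeloid and haematopoietic markers, miR-223-3p, miR-142-3p and miR-142-5p, were detected on all 5 arrays, with summed signals of 5594, 6579.7 and 3913 after flagellin and 5915 and 4920.1 in medium, and miR-223-3p was the brightest. The lymphoid marker miR-150-5p, the hepatocyte marker miR-122-5p, the neuronal marker miR-124-3p and the muscle marker miR-133a-3p were undetected on all arrays. Of 2 endothelial markers, miR-126-3p was detected, with 12.6, 29.1 and 5.60 after flagellin and 12.5 and 5.04 in medium. Of 4 stromal markers, 2 were detected on some arrays, led by miR-199a-3p, with a summed signal of 53.1 on flagellin replicate 2, 5.58 on flagellin replicate 1, 5.59 on medium replicate 1 and 0 on the others. Of 3 erythroid markers, miR-451 alone was detected, at 16.98 on flagellin replicate 2 and 5.29 on flagellin replicate 1. These minor markers were highest on flagellin replicate 2, the array on which miR-99a-5p and miR-125b-5p were highest too, and on which 6 of the 9 guide strands had their lowest scaled value. Their part in these values was not tested. In bulk RNA, fewer cells of a type and less RNA per cell cannot be told apart.

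The miRNAs most like the family across arrays were chosen by the root mean square difference, over the 5 arrays, between a miRNA's centred scaled log2 values and the mean centred profile of the members. That profile was 0.054, -0.085 and 0.029 after flagellin and -0.027 and 0.030 in medium. Among 268 other miRNAs detected on all arrays, the closest was miR-467c-5p (0.021), followed by miR-10a-5p (0.023), miR-221-3p (0.029), miR-181a-5p (0.030) and miR-378-3p (0.030), against a median of 0.13. The members themselves lay between 0.016 and 0.077 from their mean profile, so some non-members lay closer to it than some members did. A profile spanning so little separates miRNAs poorly, and since it is nearly flat, the choice itself fixes that the 5 closest differ little between the groups.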

How the data were processed

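miRNA was measured in BMDCs with flagellin (3 arrays) or medium alone (2 arrays). The authors read spot intensities with Agilent Feature Extraction (version 10.7.3.1). Per array, the deposited intensity file (header build mm9) gives a signal per probe and a total gene signal per miRNA, with 0.1 for undetected miRNAs. Summing probes above 3 times their error gave that total for 5895 of 5895 pairs of miRNA and array (relative tolerance 0.001). The authors also deposited log2 values, which equal the total gene signal in log2 less a single array-wide constant (6.90, 6.91, 6.55, 6.91 and 6.73; column medians -10.22, -10.23, -9.88, -10.23 and -10.05).

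For scaling, each array's total gene signals were divided by their 75th percentile among the 277 mouse miRNAs found on every array. Scaled values under 0.0121 (-6.37 in log2) were set to that floor, and log2 was taken. limma 3.58.1 under R 4.3.3 (linear models, empirical Bayes, Benjamini-Hochberg) compared the groups over 307 mouse miRNAs detected on at least 2 arrays, with 3 residual degrees of freedom, and over 596 probes above 3 times their error on at least 2 arrays. The fit was tested on simulated data. Sequences, lists and figures were handled in Python 3.11.15 (matplotlib 3.10.9, numpy 2.4.6, pandas 2.3.3).

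The named miRNAs were the 9 members, 11 opposite arms, 5 partners in let-7 host clusters, array miRNAs with the same seed, 5 miRNAs induced by Toll-like receptors, cell type markers and the 5 miRNAs closest in profile. The members and lists were chosen with earlier results of these data known. Alternatives covered scaling, background, filter, floor, test, blocks, probe choice and leaving out each array, plus the removal of a probe length trend, chosen after seeing the data. The number of arrays limits the precision. Mature sequences and hairpins came from RefSeq (GRCm38.p6), in which all 9 members were found by name.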

Additional observations from a re-analysis of the deposited data

How the results depend on the processing

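Under every alternative run, 0 of the 9 members had an adjusted p under 0.05, the smallest being 0.518, and 0 probes passed in any of the 12 probe-level alternatives. Of 189 member fold changes under the alternatives, 37 had the opposite sign and 152 did not, and they ranged from -0.14 to 0.22. The alternatives of filter, floor, limma's trend and t-test left each member's fold change as it was, so those signs could not turn. Some other alternatives gave the same fold changes as each other and were counted more than once. The tally is therefore not a measure of how stable the signs are. The percentile over all mouse miRNAs, which shifts the members by 1 common amount, gave 5 of these 37 sign changes, and without it the highest value was 0.096. Signs this close to 0 turned as follows (log2 fold changes, flagellin minus medium), and the cause was not tested.

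With the percentile over all mouse miRNAs, let-7a-5p had 0.16, let-7e-5p 0.17, let-7f-5p 0.14, let-7i-5p 0.17, miR-98-5p 0.13, miR-99b-5p 0.18 and miR-125a-5p 0.16. Without scaling, let-7d-5p had -0.019. After quantile normalization, let-7b-5p had -0.076, let-7c-5p -0.083, let-7i-5p 0.027 and miR-21-5p -0.098, while let-7d-5p and let-7f-5p were at 0. The authors' log2 table put let-7i-5p at 0.00011 and miR-99b-5p at 0.0050. With normexp and quantile normalization, let-7d-5p had -0.056, let-7f-5p 0.010 and miR-99b-5p 0.027. With array row as a block, let-7d-5p had -0.014. The longest probe alone, which was also the brightest, gave let-7e-5p 0.0049 and let-7i-5p 0.0063. With the probe length trend removed (chosen after seeing the data), let-7d-5p had -0.021, let-7g-5p -0.025 and miR-99b-5p 0.033.

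With the replicate block, let-7b-5p had -0.048, let-7c-5p -0.029, let-7d-5p -0.014 and let-7i-5p 0.040, and the count of mouse miRNAs past the threshold was 0. Medium has no replicate 3, so the block takes flagellin replicate 3 out of the estimate. These fold changes equal those found when that array was left out. Same-numbered arrays did not deviate together (r = -0.043 and -0.076 across 277 miRNAs, which are not independent replicates). With 2 medium arrays, these values cannot decide whether same-numbered arrays share an origin, which the labels do not give. No call on a member changed.

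When single arrays were left out, the lowest and highest values were -0.061 and 0.024 for let-7a-5p, -0.048 and 0.096 for let-7b-5p, -0.029 and 0.071 for let-7c-5p, -0.035 and 0.061 for let-7d-5p, -0.096 and 0.066 for let-7e-5p, -0.085 and 0.0080 for let-7f-5p, -0.021 and 0.093 for let-7g-5p, -0.073 and 0.040 for let-7i-5p, and -0.12 and -0.0047 for miR-98-5p, which kept its sign. They were -0.048 and 0.042 for miR-99b-5p and -0.081 and 0.058 for miR-125a-5p. Where this left 1 medium array, its spread was taken to equal that of the flagellin group.

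The count of mouse miRNAs past the threshold, 2 in the main setting, was 0 without scaling and after quantile normalization, alone or with normexp. It was also 0 with the row block and with the percentile over all mouse miRNAs. It was 1 with detection required on all 5 arrays, no filter, limma's trend or the length trend removed, 4 with the authors' values or a floor divided by 10, and 0 to 1 with arrays left out (1 without flagellin replicate 3). The number of members without overlap, 0 in the main setting, was 1 after quantile normalization, 2 after normexp and quantile normalization, 1 with the length trend removed, and 0 to 3 with arrays left out (3 without flagellin replicate 1), where fewer arrays make separation easier. The members' share of signal was 17.3% when the 10 brightest non-members were left out of the sum, which that smaller sum raises, and 7.51% over miRNAs detected on all arrays. Member signals lay at least 9.65 errors above 0 on each probe, and the number of arrays limits the precision.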
